A study of Xenopus tropicalis with 16 samples.

Results

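CYP3A enzymes were followed through the gene tables of 16 liver libraries of female Xenopus tropicalis, the tropical clawed frog. The genes were chosen by exact symbol as the rows named CYP3A5 and cyp3a4, which gave 2 of the 19921 genes listed. Each symbol occurred once, and both genes had a valid estimate in every library and passed the filter on low values. Another row, spelled cyp3a5 in lower case, lies beside CYP3A5 on the same scaffold. It does not meet the rule and is given as a neighbour.

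The libraries fall into 4 groups of 4: frogs that were not exposed (called unexposed here), frogs exposed to benzo[a]pyrene, frogs exposed to triclosan, and frogs exposed to a mixture. Of the agents, benzo[a]pyrene is a combustion product with fused aromatic rings and triclosan is a chlorinated antibacterial. The series title speaks of chronic exposure to endocrine disruptors. The labels used here give no dose, duration, age, strain or vehicle, do not list what the mixture contained, and do not say whether a biological replicate was 1 frog or a pool. RNA came from pieces of whole liver, so fewer cells of a type and less RNA per cell cannot be told apart in any value below.

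CYP3A enzymes are haem-containing monooxygenases of the endoplasmic reticulum that oxidise steroids, bile acids and many drugs, and in mammals they are among the main drug-metabolising enzymes of liver and gut. They receive electrons from the reductase encoded by por. In mammals their genes are induced through the pregnane X receptor (PXR, gene nr1i2) and the constitutive androstane receptor (CAR, gene nr1i3), nuclear receptors that bind foreign compounds and steroids and act as partners of RXR. Benzo[a]pyrene is a ligand of another receptor, the aryl hydrocarbon receptor (AhR), whose classical target is cyp1a1.

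CYP3A5 (ENSXETG00000033940) spans GL172956.1:299440-317640, and cyp3a4 (ENSXETG00000025090) spans GL172712.1:65862-87942, on genome scaffolds whose build the sources used here do not name. The 2 genes therefore lie on different scaffolds. CYP3A5 covers 18.2 kb and cyp3a4 22.08 kb. Levels are FPKM, fragments normalised to transcript length and library size, which the authors deposited and which were rescaled here so that libraries share 1 scale. Differences between groups are log2 differences of rescaled FPKM + 1, which understate differences of low genes such as cyp3a4. Every comparison was tested with limma over all 6919 genes that passed the filter, two-sided, and "adjusted p" is the Benjamini-Hochberg value over those genes, with calls made below 0.05.

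Gene rows with a valid estimate and an interval wholly above 0 held between 10.9 and 17.9 M fragments per library (M, mega). These are implied by the width of the deposited confidence intervals and leave out all other rows. Hepatocyte markers were abundant in sum, at 6262 to 17417 rescaled FPKM per library, with serpina1, a secreted protease inhibitor, between 2068 and 8451 in all libraries. Not every listed marker was high, as hnf4a reached at most 0.821. The defining ovary markers zp2 and zp3 were listed at 0 throughout, and the enterocyte markers vil1 and fabp2 reached at most 0.176 and 0.239. The gut list as a whole was not low, as its rows summed to between 491 and 2557 rescaled FPKM per library. The estimate for albumin (alb) was marked as not valid in every library and was not used. Ribosomal RNA rows made up 10.6% of summed FPKM in mixture 4 and 3.45% in benzo[a]pyrene 4, against 0.589 to 2.39% in the other 14 libraries. Their median Spearman correlation with the other libraries was 0.907 and 0.904, below the 0.921 to 0.930 of the other 14.

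CYP3A5 was the more abundant of the 2 genes in every library. In unexposed liver it stood at 10.5, 8.10, 5.65 and 4.33 rescaled FPKM in replicates 1 to 4, a mean of 7.14 ± 2.72 (SD, n = 4). After benzo[a]pyrene it stood at 12.3, 6.71, 16.3 and 34.6, a mean of 17.5 ± 12.1 (SD, n = 4). Replicate 4 carried the highest value of that group, and replicate 2 lay inside the unexposed range. After triclosan the values were 29.5, 14.5, 9.82 and 20.5, with a mean of 18.6 ± 8.48 (SD, n = 4). With the mixture they were 11.6, 14.3, 24.9 and 41.6, with a mean of 23.1 ± 13.6 (SD, n = 4). All 4 mixture libraries lay above the highest unexposed library, as did 3 of 4 libraries in each single exposure, so that 10 of 12 exposed libraries exceeded every unexposed one. How many of all genes tested reach 3 of 4 or 10 of 12 was not counted.

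**Figure D1:**
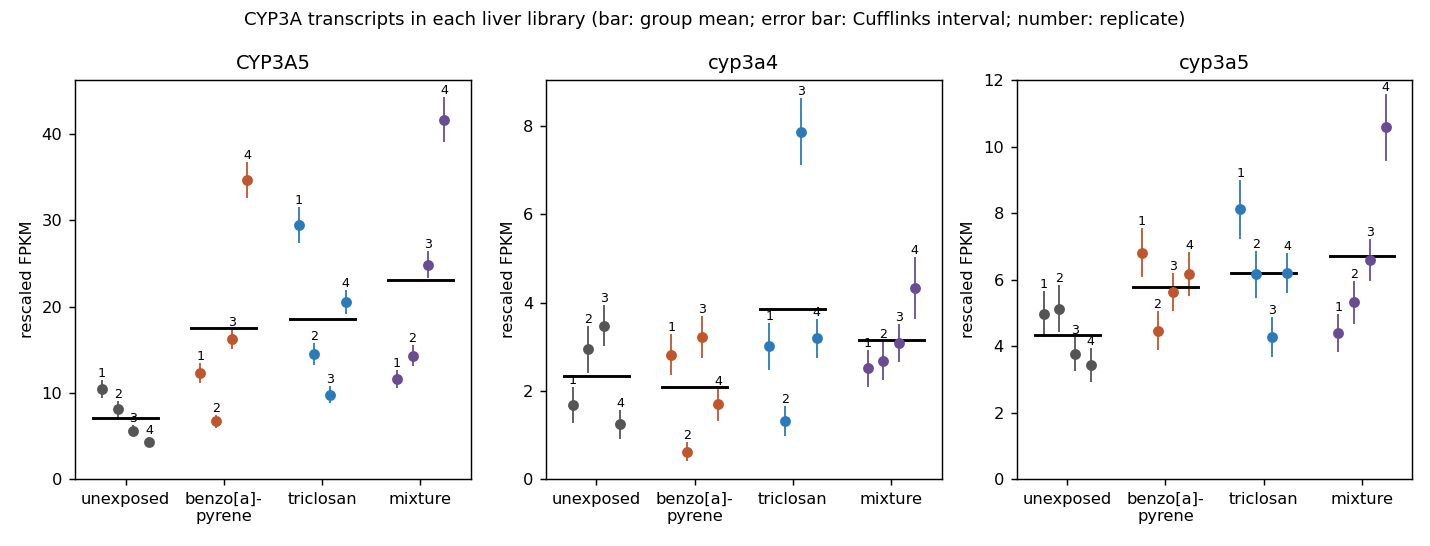
Rescaled FPKM (y axis) of CYP3A5, cyp3a4 and the neighbour cyp3a5 in each of the 16 liver libraries, by group (x axis). Points are libraries with their replicate number, horizontal bars are group means, and error bars are the deposited Cufflinks intervals, rescaled. CYP3A5 lies between 4.33 and 10.5 in unexposed libraries and reaches 34.6 and 41.6 in benzo[a]pyrene 4 and mixture 4, while cyp3a4 overlaps between all groups.

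Against unexposed liver, the CYP3A5 difference was 1.02 on the log2 scale for benzo[a]pyrene (SE 0.47, 95% interval 0.02 to 2.03), 1.22 for triclosan (SE 0.47, interval 0.22 to 2.23) and 1.46 for the mixture (SE 0.47, interval 0.46 to 2.46). These correspond to 2.03-fold, 2.34-fold and 2.75-fold on the scale of FPKM + 1. The limma p was 0.0460, 0.0200 and 0.00716, and the adjusted p was 0.337, 0.965 and 0.731. CYP3A5 was therefore not called in any of the 3 comparisons, and neither was cyp3a4. Among all genes tested, limma called 2 for benzo[a]pyrene (0.0289%), 0 for triclosan (0%) and 0 for the mixture (0%), while 1005 (14.5%), 302 (4.36%) and 454 (6.56%) genes had an unadjusted p below 0.05. The p of CYP3A5 was the 945th, 110th and 45th smallest of 6919. CYP3A5 did not overlap with unexposed for the mixture alone, where 2.51% of genes tested were likewise higher in every exposed library than in any unexposed one, against 4.96% for benzo[a]pyrene and 1.24% for triclosan. The 3 comparisons share the same 4 unexposed libraries and are not independent.

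Set against each other, the exposed groups did not separate for CYP3A5. In order of mean level the groups ran from unexposed through benzo[a]pyrene and triclosan to the mixture, and each neighbouring pair overlapped. The mixture differed from benzo[a]pyrene by 0.44 (interval -0.56 to 1.44, limma adjusted p = 0.713) and from triclosan by 0.24 (interval -0.76 to 1.24, adjusted p = 0.998). Benzo[a]pyrene differed from triclosan by -0.20 (interval -1.20 to 0.80, adjusted p = 0.881). Of all genes, 5 (0.0723%), 0 (0%) and 6 (0.0867%) were called in these comparisons, and 908 (13.1%), 200 (2.89%) and 960 (13.9%) had an unadjusted p below 0.05. If the mixture held both single agents, which the labels do not say, the difference between the mixture and the sum of both single-exposure differences was -0.79 for CYP3A5 (SE 0.67, interval -2.20 to 0.63, limma adjusted p = 0.823). No gene was called in that contrast (0%), and 488 (7.05%) had an unadjusted p below 0.05. For CYP3A5 the intervals between exposures thus include 0 and also include differences as large as 1.44 for the mixture against benzo[a]pyrene and 1.24 for the mixture against triclosan.

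The highest rescaled CYP3A5 values sat in mixture 4 and benzo[a]pyrene 4, the libraries with the most ribosomal RNA. The part of ribosomal RNA in the CYP3A5 differences was not tested beyond leaving those libraries out. Unexposed 4, next in ribosomal RNA at 2.39%, had the lowest CYP3A5 value, 4.33. The rescaling raised mixture 4 most, from a deposited FPKM of 24.3 to 41.6. Without mixture 4 and benzo[a]pyrene 4 together, the CYP3A5 difference was 0.63 for benzo[a]pyrene (unadjusted limma value 0.143, adjusted p = 0.60), down from 1.02. For the mixture it was 1.14 without them (unadjusted limma value 0.0144, adjusted p = 0.987). The other 3 mixture libraries, at 11.6 to 24.9, each exceeded every unexposed library. Triclosan libraries held 1.03 to 1.79% ribosomal RNA, inside the unexposed range of 0.589 to 2.39%, and had the 1.22 difference given above.

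**Figure D2:**
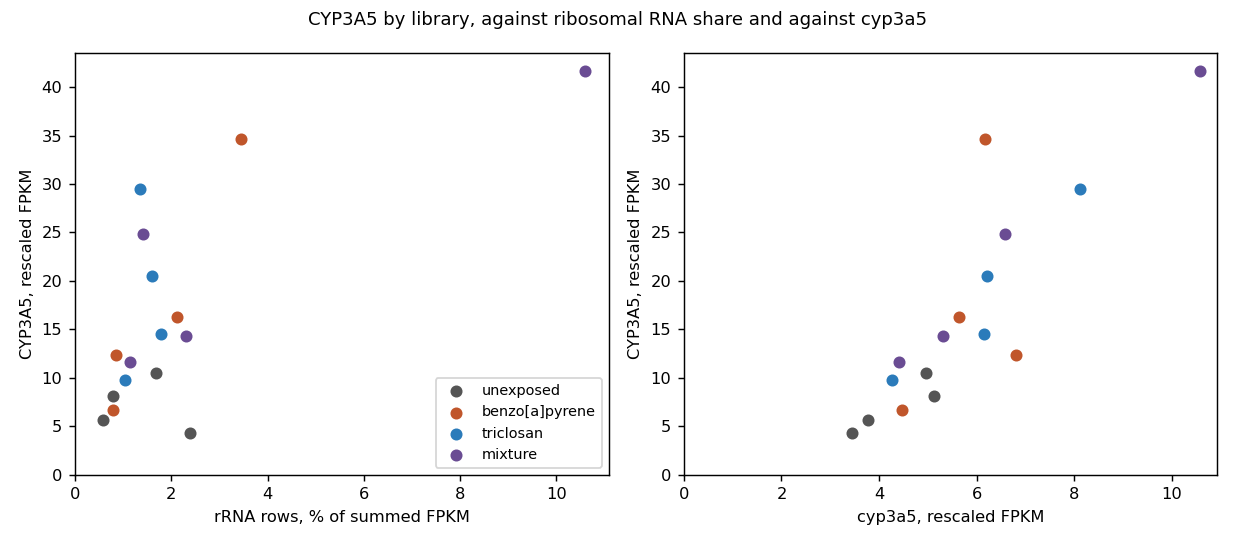
CYP3A5 level (y axis, rescaled FPKM) in each of the 16 libraries against the share of ribosomal RNA rows in summed FPKM (left, %) and against the level of the neighbour cyp3a5 (right, rescaled FPKM), coloured by group. Mixture 4, at 10.6% ribosomal RNA, and benzo[a]pyrene 4, at 3.45%, carry the highest CYP3A5 values, while the other 14 libraries spread between 4.33 and 29.5 at 0.589 to 2.39%.

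The gene listed as cyp3a4 showed no such separation between groups. In unexposed liver it stood at 1.69, 2.94, 3.48 and 1.25 rescaled FPKM (2.34 ± 1.05, SD, n = 4). It stood at 2.83, 0.624, 3.22 and 1.70 after benzo[a]pyrene (2.09 ± 1.17, SD, n = 4). All 4 benzo[a]pyrene libraries were below the highest unexposed library. After triclosan the values were 3.02, 1.32, 7.87 and 3.19 (3.85 ± 2.81, SD, n = 4), and with the mixture 2.51, 2.69, 3.09 and 4.33 (3.16 ± 0.818, SD, n = 4). Triclosan 3 had the highest level of all 16 libraries, and the groups overlapped in all 6 pairs.

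For cyp3a4 the limma difference from unexposed was -0.15 for benzo[a]pyrene (interval -0.94 to 0.64, adjusted p = 0.887), 0.43 for triclosan (interval -0.37 to 1.22, adjusted p = 0.986) and 0.35 for the mixture (interval -0.44 to 1.14, adjusted p = 0.828). The unadjusted p of cyp3a4 was 0.699, 0.270 and 0.358. Between exposures cyp3a4 differed by 0.50 for the mixture against benzo[a]pyrene, -0.07 for the mixture against triclosan and -0.57 for benzo[a]pyrene against triclosan (limma adjusted p = 0.584, 0.998 and 0.516). The departure of cyp3a4 from the sum of the single exposures was 0.07 (interval -1.04 to 1.19, limma adjusted p = 0.982). In order of mean level the groups ran from benzo[a]pyrene through unexposed and the mixture to triclosan, and neighbouring groups did not differ beyond their spread.

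**Figure D3:**
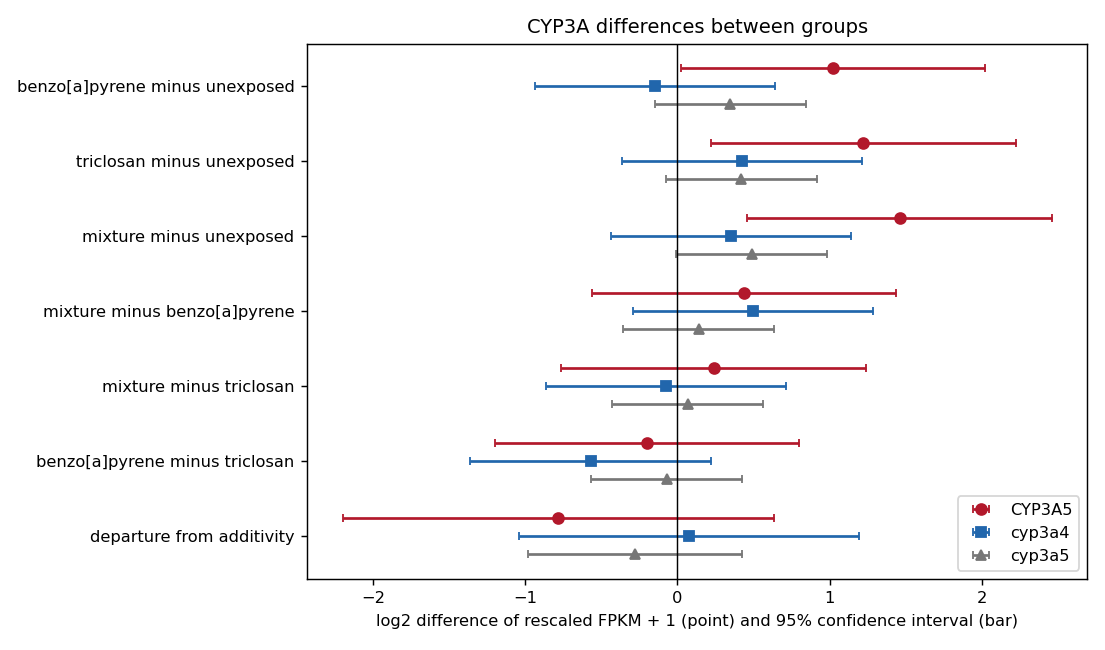
Log2 differences of rescaled FPKM + 1 (x axis) for CYP3A5, cyp3a4 and the neighbour cyp3a5 in each comparison (y axis), as points with 95% limma intervals before adjustment over genes. The CYP3A5 intervals against unexposed start at 0.02, 0.22 and 0.46, while every cyp3a4 interval and every comparison between exposures includes 0.

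For CYP3A5 the spread between libraries exceeded the counting error in every group. The deposited intervals imply 217 to 1097 fragments per library on CYP3A5, a counting error of 3.02 to 6.78%, while its coefficient of variation between libraries of a group was 38.1% without exposure, 69.2% after benzo[a]pyrene, 45.6% after triclosan and 58.9% with the mixture. The median coefficient over genes tested was 26.5 to 33.1% across the groups. For cyp3a4 the implied 33.4 to 423 fragments give a counting error of 4.86 to 17.3%, and its coefficient of variation was 25.9 to 73.0%. The implied fragments rest on the intervals alone and cover counting error only.

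CYP3A5 and cyp3a4 together gave 9.48 ± 2.89 rescaled FPKM in unexposed libraries, 19.6 ± 12.3 after benzo[a]pyrene, 22.4 ± 7.50 after triclosan and 26.3 ± 14.4 with the mixture (SD, n = 4 each). The summed level in triclosan and mixture libraries started at 15.8 and 14.1, above the unexposed maximum of 12.2, whereas the lowest benzo[a]pyrene library had 7.33. Of single genes tested, 1.24% were higher without overlap for triclosan and 2.51% for the mixture. Two-sided exact permutation tests of the sum against unexposed gave p = 0.143 for benzo[a]pyrene and p = 0.0286 for triclosan and for the mixture, the smallest value that 4 against 4 libraries allow. Adjusted over the 6 pairs of groups, the exact p-values were 0.286, 0.0857 and 0.0857, none below 0.05. An adjusted exact p below 0.05 would need most of the 6 pairs at the smallest possible value. These tests therefore had little room to make a call. CYP3A5 makes up most of this sum: cyp3a4 contributed 25.2 ± 10.1% of it without exposure, 12.1 ± 6.60% after benzo[a]pyrene, 18.9 ± 17.2% after triclosan and 13.5 ± 3.93% with the mixture (SD, n = 4 each). In triclosan 3 alone of the triclosan libraries the cyp3a4 share was high, at 44.5%.

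The row spelled cyp3a5 (ENSXETG00000005360), at GL172956.1:325055-341660, starts 7.415 kb after the end of CYP3A5. Its level was 4.33 ± 0.849 rescaled FPKM in unexposed liver, 5.77 ± 0.996 after benzo[a]pyrene, 6.19 ± 1.57 after triclosan and 6.72 ± 2.72 with the mixture (SD, n = 4 each). In each exposed group 3 of 4 libraries exceeded the highest unexposed value of 5.13, a count whose share over all genes was not determined. Its limma differences from unexposed were 0.35, 0.42 and 0.49 (adjusted p = 0.495, 0.965 and 0.763), smaller point estimates than those of CYP3A5 in the same order. How far reads were divided between CYP3A5 and this neighbour, whose symbols are the same apart from case, was not stated in the labels, so the split between them is uncertain.

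Across the 16 libraries CYP3A5 and cyp3a5 varied together, with Pearson's r = 0.883 and Spearman's rho = 0.876 of log2 values (permutation p = 2e-05 and 1e-05, adjusted over 3 pairs 6e-05 and 3e-05, the rho value being the smallest that the 100000 permutations allow). Without mixture 4 and unexposed 4, the libraries farthest from the median of CYP3A5, r was 0.811, and r of the deviations from group means was 0.83. The relation was thus present within the groups as well as across them. The part that the uncertain split of reads between these 2 neighbours has in it was not tested. CYP3A5 and cyp3a4 gave r = 0.266 and rho = 0.297 (permutation p = 0.323 and 0.263, adjusted p = 0.393 and 0.349), and r = 0.0197 without the 2 farthest libraries. For cyp3a4 and cyp3a5 r was 0.228 and rho 0.250 (permutation p = 0.393 and 0.349, adjusted p = 0.393 and 0.349), and r was 0.461 without benzo[a]pyrene 2 and triclosan 3.

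On the other side, before CYP3A5, lie tcaim, a mitochondrial protein gene, at 0.654 to 2.06 rescaled FPKM, trim71, which encodes an RNA-binding ubiquitin ligase of early development and stood at no more than 0.0337, and cnot10, a subunit gene of the CCR4-NOT deadenylase, at 1.92 to 3.25. Beyond cyp3a5 lies a gene without a symbol (ENSXETG00000034144) at 25.3 to 62.7, the most abundant of the surrounding genes. Its limma differences from unexposed were 0.22, -0.38 and 0.07 for benzo[a]pyrene, triclosan and the mixture (adjusted p = 0.696, 0.965 and 0.959). Those of tcaim were -0.06, 0.01 and 0.19, and those of cnot10 0.22, 0.06 and 0.21, none of them called. A further gene without a symbol (ENSXETG00000033597) was listed at 0 in all libraries.

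Around cyp3a4, XB-GENE-984218 lies before it at no more than 0.263 rescaled FPKM, and RIPPLY2, known from somite formation in the embryo, was listed at 0. After it come cyb5r4, a cytochrome b5 reductase gene, at 0.684 to 2.16, mrap2, a melanocortin receptor accessory protein gene listed at 0, and tbx18, a developmental transcription factor gene, at no more than 0.126. The limma differences of cyb5r4 were 0.31, -0.24 and 0.06 (adjusted p = 0.338, 0.965 and 0.932). In the RefSeq annotation of assembly UCB_Xtro_10.0, 3 genes carry a CYP3A symbol. Among them cyp3a4.3, with the older symbol cyp3a4, sits between cyb5r4 and cyp3a4.2, and cyp3a5 follows tcaim. In the files the place of cyp3a4.2 is held by XB-GENE-984218. The place directly after tcaim is held by the row CYP3A5, and not by the lower-case cyp3a5. Symbol and order thus differ for RefSeq cyp3a5, and whether these are the same genes was not tested. The Ensembl identifiers of the files have no match in that table, so the rows were paired with it by symbol and order only.

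**Figure D4:**
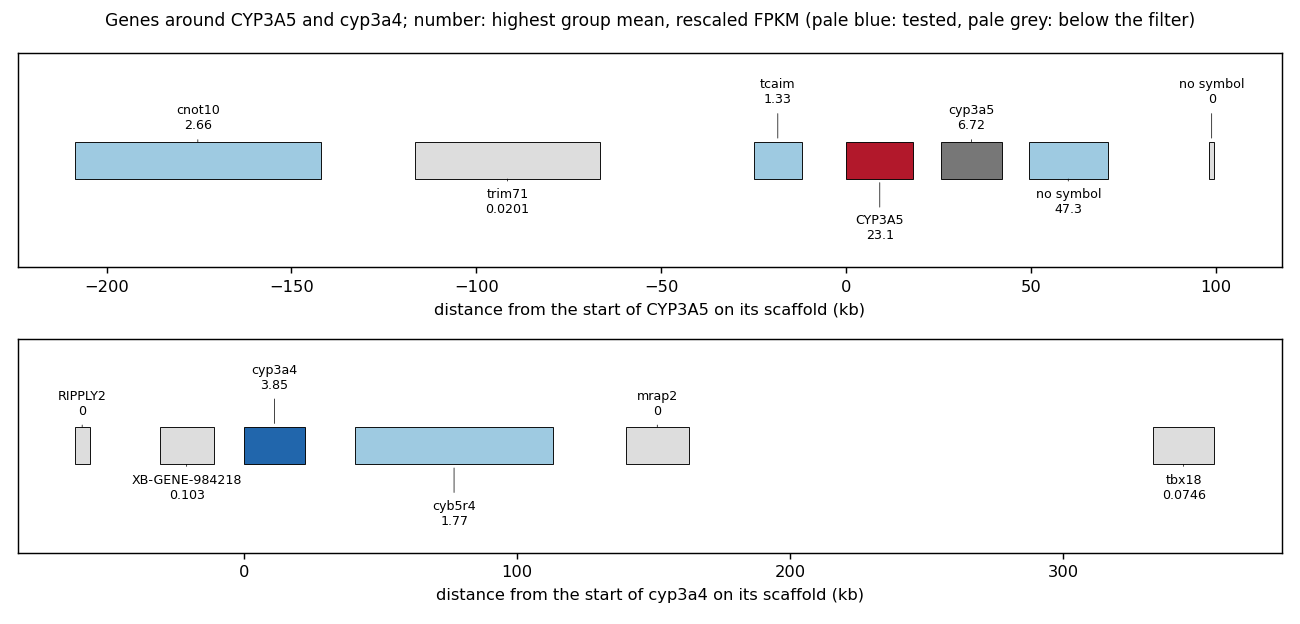
Genes around CYP3A5 (top) and cyp3a4 (bottom), drawn to scale by distance from the start of each gene on its scaffold (x axis, kb), with the highest group mean in rescaled FPKM under each name. Red marks CYP3A5, dark blue cyp3a4, dark grey cyp3a5, pale blue other genes that passed the filter and pale grey genes below it. CYP3A5 (23.1), cyp3a5 (6.72) and a gene without a symbol (47.3) lie next to each other.

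Among the 44 rows with a cytochrome P450 symbol, 26 passed the filter. The 3 most abundant were cyp2a6, cyp4b1 and cyp2c8.2, at means of 140, 84.5 and 83.5 rescaled FPKM over the 16 libraries. CYP3A5 ranked 7th with a mean of 16.6, cyp3a5 14th with 5.75 and cyp3a4 19th with 2.86. By group mean CYP3A5 ranked 11th in unexposed liver, 6th with benzo[a]pyrene, 7th with triclosan and 5th with the mixture. Together CYP3A5 and cyp3a4 made up 1.90 ± 0.430% of summed P450 FPKM without exposure, 4.06 ± 1.91% after benzo[a]pyrene, 4.21 ± 0.834% after triclosan and 5.22 ± 3.01% with the mixture (SD, n = 4 each). The lowest triclosan and mixture shares, 3.30% and 2.50%, lay above the highest unexposed share of 2.42%. These shares rest mostly on the same CYP3A5 values as the sum and are not separate evidence. How many other genes separate alike as a share of summed P450 FPKM was not counted.

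CYP3A5 had the highest log2 difference of the 26 P450 rows in each of the 3 comparisons with unexposed, which share their control libraries. The median over the 26 rows was -0.11 for benzo[a]pyrene, -0.05 for triclosan and -0.03 for the mixture, and over all genes tested it was 0.00, 0.00 and -0.02. By limma 0 of the 26 rows were called in any of these comparisons, and 3, 2 and 2 had an unadjusted p below 0.05. The AhR target cyp1a1 had levels of 40.1 ± 7.32 without exposure, 25.0 ± 9.65 after benzo[a]pyrene, 36.7 ± 13.6 after triclosan and 42.4 ± 23.6 with the mixture (SD, n = 4 each), with limma differences of -0.73, -0.17 and -0.08 (adjusted p = 0.391, 0.990 and 0.970).

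**Figure D5:**
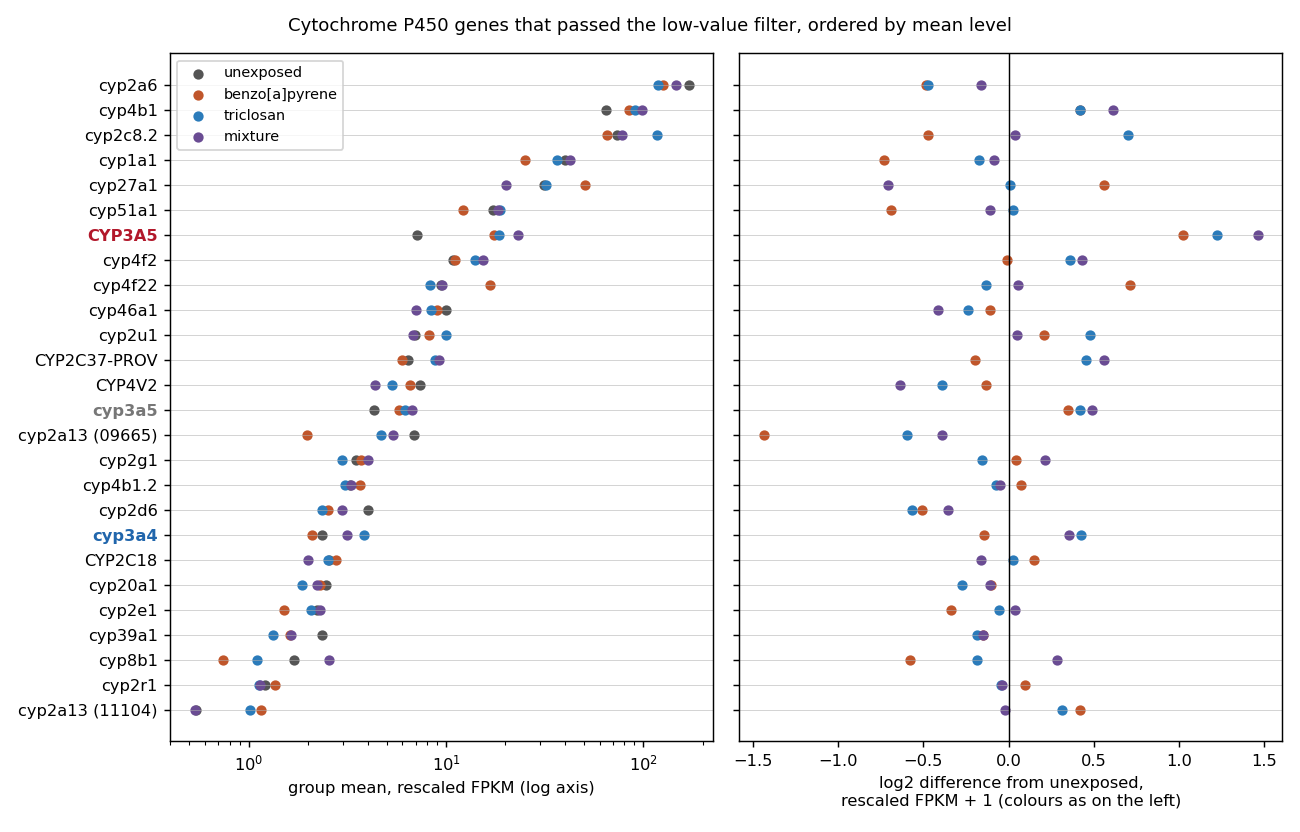
Group means of the 26 cytochrome P450 rows that passed the filter (left, rescaled FPKM, log axis) and their log2 differences from unexposed (right), ordered by mean level over all libraries; the digits after cyp2a13 end its gene identifiers. CYP3A5, at 7.14 in unexposed and 23.1 in mixture libraries, lies farthest to the right in the right panel for each exposure, at 1.02, 1.22 and 1.46.

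Genes related to CYP3A were grouped into 9 lists, with 75 different rows tested. The lists hold regulators and partners, but also AhR targets, other PXR or CAR targets and enzymes that share CYP3A substrates. By limma 0 of the 75 were called in any comparison with unexposed, and 14, 3 and 2 had an unadjusted p below 0.05 for benzo[a]pyrene, triclosan and the mixture (18.7%, 4.00% and 2.67%, against the 14.5%, 4.36% and 6.56% of all genes given above). Their median differences were -0.23, -0.06 and -0.07, with 25, 28 and 32 of 75 rows above 0. Of all genes tested, 50.4%, 49.8% and 47.8% were above 0 in the same comparisons, with the medians near 0 given above. The lists are described by these counts, and no list was tested as a set.

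Of the receptors, the PXR gene nr1i2 was low in every library, at 0.115 to 0.591 rescaled FPKM, and did not pass the filter. The CAR gene NR1I3 had means of 4.49 ± 1.27 without exposure, 4.05 ± 3.61 after benzo[a]pyrene, 2.80 ± 0.632 after triclosan and 4.90 ± 2.81 with the mixture (SD, n = 4 each), with limma differences of -0.36, -0.51 and 0.01. The list of receptors and their partners held 6 tested rows. The partner receptor gene rxrg, at 8.11 to 23.0, and the bile acid receptor gene NR1H4, at 7.80 to 18.9, were the most abundant of them. Of the 6, 2 had a difference above 0 for benzo[a]pyrene, 0 for triclosan and 4 for the mixture. Those above 0 for benzo[a]pyrene were rxrb (0.14) and arnt (0.25), the latter listed as a partner and not as a receptor. Across libraries the r of CYP3A5 was -0.387 with NR1I3, -0.281 with por and -0.500 with cyp1a1, given as descriptions over 16 libraries that share their scaling.

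Among the coregulators of nuclear receptors, 4, 4 and 5 of 6 rows were above 0 in the order benzo[a]pyrene, triclosan and mixture. The corepressor gene ncor1 differed by 0.33, -0.09 and 0.08, and the acetyltransferase gene crebbp by 0.49, 0.05 and 0.11. Of 9 liver transcription factor rows, 1, 3 and 2 were above 0. The factor gene cebpa, which activates hepatocyte genes, stood at 47.1 ± 6.89 rescaled FPKM in unexposed and 18.1 ± 7.92, 30.0 ± 8.60 and 29.5 ± 14.6 in the exposed groups (SD, n = 4 each), with differences of -1.44, -0.67 and -0.80 (limma adjusted p = 0.140 for benzo[a]pyrene). The factor gene hnf4a reached at most 0.821 in any library and was not tested.

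Electron donors and haem supply gave 7, 6 and 3 of 16 rows above 0. The reductase gene por stood at 4.73 ± 1.88, 3.92 ± 1.89, 3.84 ± 1.51 and 4.78 ± 1.53 rescaled FPKM in unexposed, benzo[a]pyrene, triclosan and mixture libraries (SD, n = 4 each), with differences of -0.23, -0.24 and 0.03. The first enzyme of haem synthesis, alas1, had differences of -0.40, -0.03 and -0.30. Of 13 other genes known as PXR or CAR targets in mammals, 4, 4 and 5 were above 0. The glutathione transferase gene gstm1 differed by -0.60, -0.12 and -0.19, the retinal dehydrogenase gene aldh1a1 by -0.48, -0.68 and -0.40, and the carboxylesterase gene ces2 by -0.46, 0.30 and -0.13. The median difference over the 13 rows was -0.46, -0.35 and -0.13.

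Steroid and bile acid enzymes had 1, 4 and 3 of 9 rows above 0. The steroid reductase gene akr1d1 stood at 37.7 ± 20.4 rescaled FPKM in unexposed and 17.8 ± 6.17, 14.8 ± 8.37 and 27.5 ± 14.4 in the exposed groups (SD, n = 4 each), with differences of -0.94, -1.26 and -0.40, and the sterol hydroxylase gene cyp27a1 differed by 0.56, 0.01 and -0.71. The list of AhR targets held 3 tested rows, of which 1, 2 and 2 were above 0, and its quinone reductase gene nqo1 differed by -0.47, 0.34 and 0.30. Of 4 inflammation genes, 3, 4 and 4 were above 0, with the NF-kappaB inhibitor gene nfkbia at 0.73, 0.04 and 0.22. The most abundant of the 4, fgg, went the other way for benzo[a]pyrene, with differences of -0.65, 0.11 and 0.02. Genes of the endoplasmic reticulum and protein turnover had 2, 1 and 4 of 9 rows above 0. Among them the chaperone gene hsp90b1 stood at 38.7 ± 38.8 rescaled FPKM in unexposed and 5.02 ± 1.77, 8.49 ± 4.87 and 20.0 ± 14.8 in the exposed groups (SD, n = 4 each), an unexposed spread as wide as its mean, with differences of -1.94, -1.35 and -0.40 (limma adjusted p = 0.286 for benzo[a]pyrene).

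Markers of other cell types were summed per library beside the CYP3A genes. The summed level of the erythroid list was 924 to 2274 rescaled FPKM in benzo[a]pyrene libraries and 439 to 751 in unexposed libraries, and 7 of 7 tested rows were above 0. Of single genes tested, 4.96% were higher without overlap for benzo[a]pyrene and 50.4% were above 0. The erythroid sums leave out the globin genes hba1 and hbg1, whose estimates were not valid in every library. Of the tested globin genes, hbd had means of 145 ± 134 without exposure and 947 ± 417 after benzo[a]pyrene (SD, n = 4 each; limma adjusted p = 0.106). For triclosan and the mixture the erythroid sums were 385 to 885 and 383 to 1151, overlapping with unexposed, with 6 and 3 of 7 rows above 0. The summed hepatocyte list was 7382 to 17417 in unexposed libraries and 6262 to 11319, 7255 to 15312 and 8700 to 14981 in the exposed groups, all 3 overlapping with unexposed. Of its 10 tested rows 1, 2 and 2 were above 0, with median differences of -0.46, -0.15 and -0.49. Bile duct markers gave 0, 2 and 1 of 6 rows above 0, macrophage markers 1, 0 and 0 of 2, lymphocyte markers 2, 3 and 1 of 3, and gut markers 0, 0 and 0 of 1. None of these rows was called by limma in any of the 3 comparisons. Their part in the CYP3A5 differences was not tested.

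The genes whose profile over the 16 libraries was most like that of CYP3A5 were, by Pearson's r of log2 values among 6407 tested genes with a symbol, rab12 (0.924), aasdh (0.893), cep97 (0.890), cyp3a5 (0.883) and ripk1 (0.878). Of these rab12 encodes a small GTPase of vesicle traffic, cep97 a centrosomal protein and ripk1 a kinase of death receptor signalling. The levels of rab12 and aasdh were low, at 0.664 to 1.77 and 0.720 to 2.65 rescaled FPKM, near the filter of 1. All 5, like those for cyp3a4 below, were picked as the highest of 6407 values of r. No test allowed for that choice. Without benzo[a]pyrene 4 and mixture 4 the r of these 5 genes was 0.831 to 0.947. The least like CYP3A5 were ccdc126 (-0.929), napa (-0.902), which encodes a vesicle fusion adaptor, and txndc5 (-0.892), which encodes a disulfide isomerase of the endoplasmic reticulum. Within groups, as deviations from group means, these 3 had r between -0.907 and -0.900.

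For cyp3a4 the most alike genes were XB-GENE-990429 (0.798), cybb (0.783), ggt1 (0.780), XB-GENE-5764783 (0.775) and ctbs (0.768). The gene cybb encodes the haem-binding subunit of the phagocyte NADPH oxidase, ggt1 a gamma-glutamyltransferase and ctbs a lysosomal chitobiase. The values of triclosan 3 were part of this likeness: there cybb stood at 19.6 rescaled FPKM, against 0.453 to 6.39 in the other libraries, and XB-GENE-990429 at 39.8, against 0.128 to 7.78. Without triclosan 3 the r of the 5 genes with cyp3a4 was 0.605 to 0.693. The least like cyp3a4 were bckdha (-0.797), a gene of branched-chain amino acid breakdown, parp11 (-0.729) and strn3 (-0.725).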

How the data were processed

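RNA of 16 frog liver samples was measured by stranded mRNA sequencing, per the labels. The authors deposited FPKM per gene with confidence intervals from Cufflinks, with read counts not used here. The submitters' processing notes name Trimmomatic 0.32.1, Bowtie 0.12.7, TopHat2 0.6 and Cufflinks 0.0.7, with no role or order. Groups come from the treatment label. FPKM were divided by median-of-ratios factors computed over the 3959 genes that reached an FPKM of 1 in all 16 libraries. Genes that reached a rescaled FPKM of 1 in 4 or more libraries and at least 3 valid values per group were tested as log2(rescaled FPKM + 1). The tests used limma 3.58.1 in R 4.3.3 with 1 mean per group over all 16 libraries, which left 12 residual degrees of freedom, and the trend and robust options. The procedure was tested on simulated data. Summed CYP3A levels were compared by two-sided exact permutation in Python 3.11.15. Libraries with the most ribosomal RNA were kept and also left out. P-values of comparisons between groups set the differences against the spread between the labelled biological replicates. Those of correlations come from shuffling values over all 16 libraries without regard to group.

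The genes and lists were chosen with earlier results of these data known. Named genes were the members, up to 4 genes a list by mean FPKM, nr1i2, por, hnf4a and cyp1a1, the 3 nearest genes on each side, and the 5 most and 3 least alike genes. Of the genes this rule selects, 1 is not reported here. Other scalings, pseudocounts, filters, fits and left-out libraries were tried as alternatives.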

Additional observations from a re-analysis of the deposited data

How the results depend on the processing

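CYP3A5, cyp3a4 and their sum passed no threshold after adjustment under any of up to 23 alternatives run (21 for the sum). The limma difference of CYP3A5 from unexposed was 0.63 to 1.37 for benzo[a]pyrene, 0.98 to 1.47 for triclosan and 1.14 to 1.72 for the mixture, with an unadjusted p below 0.05 in 11, 21 and 23 of 23 alternatives and an adjusted p of 0.275 to 0.681, 0.594 to 1.00 and 0.547 to 1.00. The benzo[a]pyrene value was 0.64 without benzo[a]pyrene 4 alone. Some small differences changed sign, and the cause was not tested. Without benzo[a]pyrene 4 and mixture 4 together, the mixture against triclosan gave -0.10 for CYP3A5, -0.15 for cyp3a5 and -0.19 for the sum, the mixture against benzo[a]pyrene gave -0.0337 for cyp3a5, and the departure from additivity was -0.0879 for cyp3a4. On FPKM as deposited, cyp3a5 gave -0.0058 for the mixture against benzo[a]pyrene and -0.0437 against triclosan, and the median of all genes for the mixture against unexposed was -0.16.

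With 1 library left out in turn, the mixture against triclosan ranged from -0.10 to 0.49 for CYP3A5, from -0.37 to 0.27 for cyp3a4, from -0.15 to 0.22 for cyp3a5 and from -0.19 to 0.36 for the sum. Benzo[a]pyrene against triclosan ranged from -0.59 to 0.14 for CYP3A5, from -0.21 to 0.0497 for cyp3a5 and from -0.68 to 0.0318 for the sum. The mixture against benzo[a]pyrene ranged from -0.0615 to 0.29 for cyp3a5. For cyp3a4, benzo[a]pyrene against unexposed ranged from -0.33 to 0.13 and the departure from additivity from -0.23 to 0.42.

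With the replicate number as a block, CYP3A5 differed from unexposed by 1.02, 1.22 and 1.46 (limma adjusted p = 0.340, 0.985 and 0.733), and no call of CYP3A5 or cyp3a4 changed. The sum gave 0.82, 1.16 and 1.28 in sign flips over 4 pairs (exact p = 0.375, 0.125 and 0.125, where 0.125 is the smallest possible). The numbers were not used to pair livers, since 6 of 24 same-numbered pairs correlated above 0.1 and r ranged from -0.25 to 0.263. Over all genes, the 2, 5 and 6 calls for benzo[a]pyrene against unexposed, the mixture against benzo[a]pyrene and benzo[a]pyrene against triclosan became 0, 0 and 0 with the block, 0, 3 and 2 without rescaling, 0, 0 and 1 with only the groups compared, and 0, 0 and 0 without the pair of libraries. They were 0, 5 and 3 with a pseudocount of 0.1, 0, 6 and 5 with upper quartile rescaling, and 1, 6 and 5 without a filter, and with 1 library left out they reached 46, 27 and 58, each without benzo[a]pyrene 3. In the other comparisons 0 to 2 genes were called. The fits without a filter and with only the groups compared give no other value for the sum, and the additivity contrast needs all groups. The cyp3a5 row, the sum with it and the mean of the exposed groups, were added after seeing the data, and that mean differed from unexposed by 1.24 for CYP3A5 (limma adjusted p = 0.631). Counting error, 3.02 to 6.78% for CYP3A5 and 4.86 to 17.3% for cyp3a4, is what depth adds to each value.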

Other observations

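The ratio of CYP3A5 to its neighbour cyp3a5 was 1.61 ± 0.359 in unexposed libraries, 2.95 ± 1.87 after benzo[a]pyrene, 2.90 ± 0.673 after triclosan and 3.26 ± 0.690 with the mixture (SD, n = 4 each, levels per length in rescaled FPKM). The lowest triclosan and mixture ratios, 2.30 and 2.64, lay above the highest unexposed ratio of 2.11, while the benzo[a]pyrene ratios, up to 5.62, overlapped with unexposed. A ratio within a library does not depend on the rescaling. It does depend on how reads were divided between these 2 neighbours, which is uncertain, and it was not computed on implied fragments. The ratio was chosen after its values were seen, and it was not tested. It uses the same CYP3A5 values as the sum, and how many other gene ratios separate alike was not counted.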
